A study of Sus scrofa with 9 samples.

Results

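The troponin complex sits on the thin filament of striated muscle and couples calcium to contraction. Its genes were described here across the first days after birth in the left ventricle of the pig. The 8 genes are the 3 troponin I genes (TNNI1, TNNI2 and TNNI3), the 3 troponin T genes (TNNT1, TNNT2 and TNNT3) and the troponin C genes TNNC1 and TNNC2. They were taken by their symbol from a table of 22629 rows, and each symbol had a row. Wild type, untreated pigs were profiled by bulk RNA sequencing of the left ventricle at 3 postnatal ages, which were day 0, day 7 and day 15, and each age had 3 of the 9 libraries. All groups share genotype, tissue and lack of treatment, and differ by age. The replicate numbers in the labels are 4, 5 and 6 at day 0, 2, 5 and 6 at day 7, and 1, 2 and 6 at day 15, and values are given in that order below. No label says whether same-age libraries stem from different animals. The p-values therefore set differences between ages against the spread of these libraries, and may not hold for animals in general.

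Troponin C binds calcium, troponin I holds the actomyosin interaction off until calcium arrives, and troponin T anchors the complex to tropomyosin. Each subunit is encoded by genes named for the muscle in which they dominate, with TNNI3 and TNNT2 as the cardiac forms, TNNI1 and TNNT1 as the slow skeletal forms, and TNNI2, TNNT3 and TNNC2 as the fast skeletal forms. TNNC1 serves both heart and slow skeletal muscle. In the mammalian heart TNNI1 is known as the fetal form of troponin I, which TNNI3 replaces around and after birth.

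Levels are in TPM (length-scaled transcript abundance as a share of the library total), which are scaled per transcript length and can be compared between genes of a library. TPM does not keep the sequencing depth, which is therefore unknown here, and no counting interval can be given. Each library listed 11290 to 12164 genes at 1 TPM or more. The most abundant row took 23.99% to 46.0% of all TPM and the mitochondrially encoded genes 16.5% to 24.6%, so ratios between troponin genes, which do not depend on this scaling, are given beside their levels. The 6 ventricular cardiomyocyte markers with a row (ACTN2, RYR2, PLN, MYL2, MYH7 and MYBPC3) summed to 19970 to 26369 TPM at day 0, 19922 to 25983 TPM at day 7 and 17795 to 26887 TPM at day 15. In bulk tissue, fewer cells of a type and less RNA per cell cannot be told apart.

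The cardiac genes dominated at every age. In the mean over the 9 libraries, TNNT2 ranked 11 among all rows of the table, TNNI3 ranked 17 and TNNC1 ranked 25, against 74 for TNNI1 and 369 for TNNT1. The order of mean TPM was TNNT2, TNNI3, TNNC1, TNNI1, TNNT1, TNNC2, TNNI2 and TNNT3 at day 0, day 7 and day 15. Neighbours in that order had separate library values, except TNNT2 and TNNI3 at day 7, TNNI3 and TNNC1 at day 7, and TNNC2 and TNNI2 at day 15. The 8 genes together took 1.70% to 2.42% of all TPM.

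**Figure D1:**
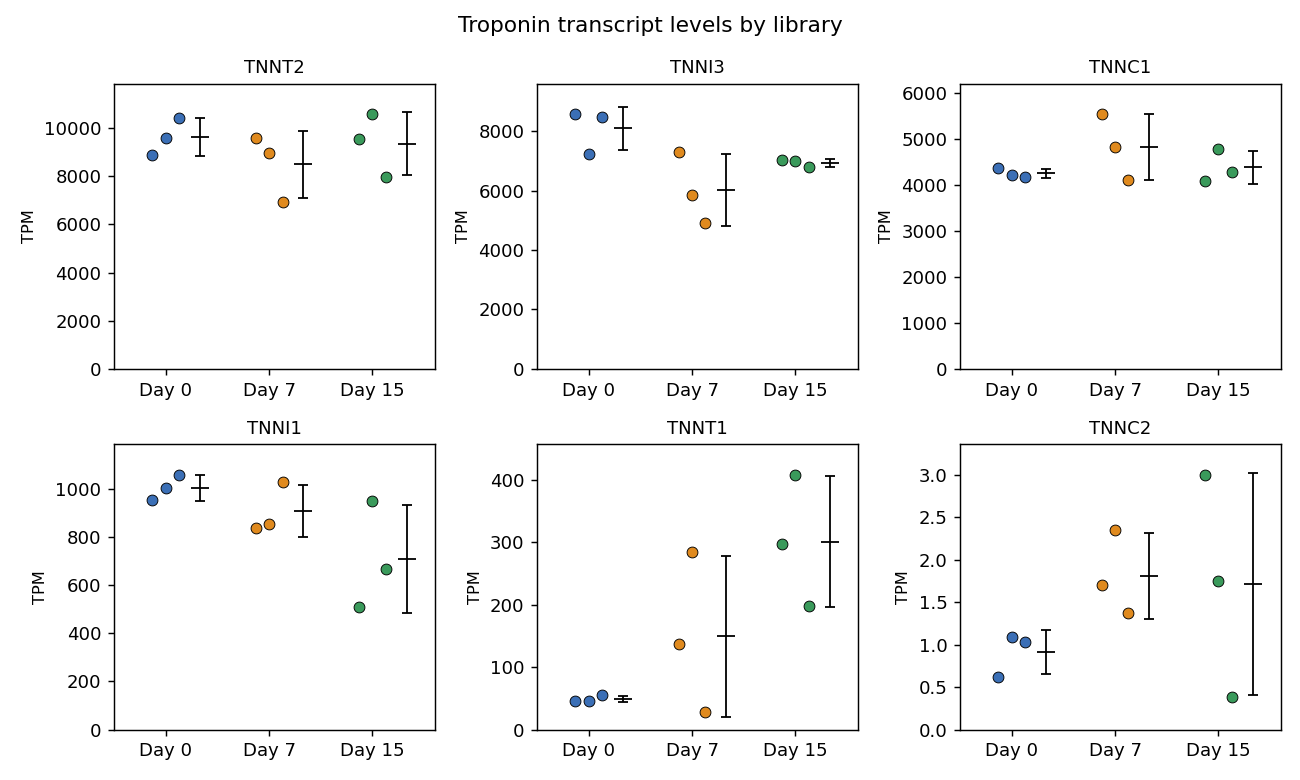
Level in TPM (y axis, linear, from 0 in each panel) of the 6 troponin genes that reached 1 TPM in at least 3 libraries, by age (x axis). Points are libraries and the bar beside them is the mean ± SD (n = 3). TNNT1 sits between 45.8 and 55.3 TPM at day 0 and between 198 and 407 TPM at day 15, with the day 7 libraries spread from 27.7 to 284 TPM.

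Changes were tested with limma on log2(TPM + 1) over the 12268 genes that had at least 1 TPM in at least 3 libraries, with 0.05 as the threshold on the adjusted p. Of the 8 troponin genes, 6 passed this filter. TNNI1, TNNI3, TNNT1, TNNT2 and TNNC1 were above 1 TPM in all 9 libraries, TNNC2 reached 1 TPM in 7, and TNNI2 and TNNT3 were not tested. Between day 15 and day 0, TNNT1 alone passed the test, 1 of 6 genes, where 23.9% of all tested genes did (5.53% higher and 18.4% lower at day 15). The library values of 3 of the 6 (TNNI1, TNNI3 and TNNT1) did not overlap between these ages, where 39.9% of all tested genes did not overlap. Between day 7 and day 0 none of the 6 passed in limma (1 had an unadjusted p under 0.05), where 16.6% of all tested genes did (7.67% higher and 8.88% lower at day 7), and 1 of 6 (TNNC2) did not overlap, where 41.4% of all did not. Between day 15 and day 7 none of the 6 passed in limma (1 had an unadjusted p under 0.05), where 0.171% of all did (0.0408% higher and 0.130% lower at day 15), and 0 of 6 were without overlap, where 19.4% of all were. In the F test over the 3 ages 1 of 6 passed, where 22.0% of all tested genes did. The contrast of the first step (day 7 against day 0) minus the second (day 15 against day 7) called 0 of 6 in limma (1 had an unadjusted p under 0.05), where it called 1.92% of all. The median log2 fold change of the 6 was 0.011 for day 7 against day 0, 0.0061 for day 15 against day 7 and -0.0046 for day 15 against day 0, and the medians over all tested genes were -0.043, -0.15 and -0.19.

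**Figure D2:**
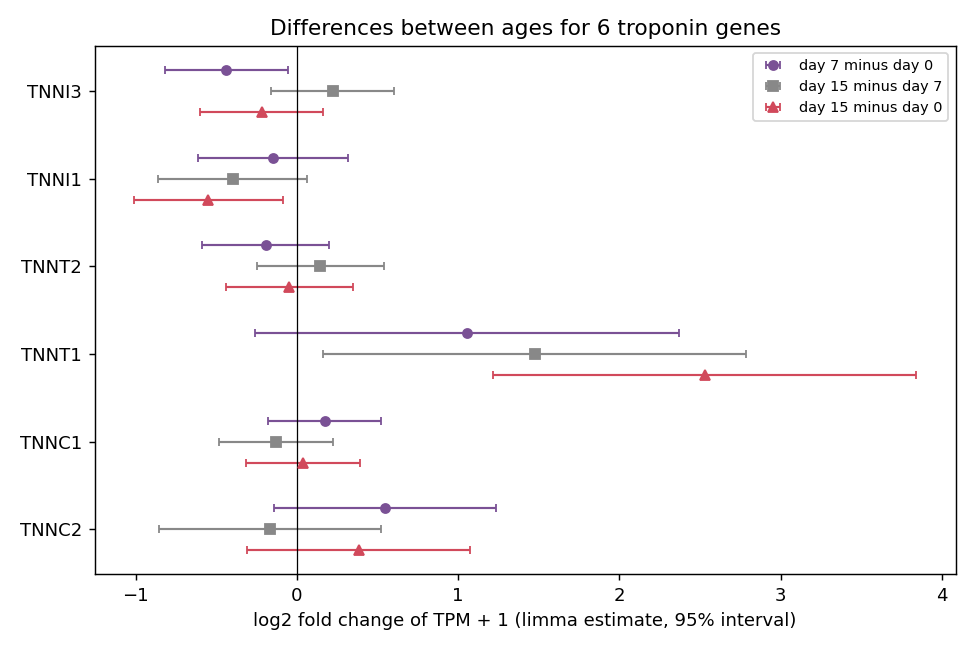
Log2 fold change of TPM + 1 (x axis, limma estimate with its 95% interval) for 6 troponin genes (y axis) in the 3 comparisons of ages; a value above 0 is higher at the later age. TNNT1 at day 15 against day 0 (2.53) is the farthest from 0, and the intervals of TNNT2, TNNC1 and TNNC2 span 0 in all comparisons.

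TNNI3, the cardiac inhibitory subunit, was the main troponin I transcript in every library. It had 8573, 7244 and 8464 TPM at day 0, 7308, 5856 and 4922 at day 7, and 7024, 7011 and 6779 at day 15. The day 15 libraries lay close together and all below the day 0 libraries, while the day 7 libraries ran from within the day 0 range to below every other library. TNNI3 averaged 6029 ± 1203 TPM at day 7, against 8094 ± 738 TPM at day 0 (SD, n = 3 each), a log2 fold change of -0.44 ± 0.18 (SE) that did not pass (limma adjusted p = 0.101). Without day 7 replicate 2 it was -0.59 and passed (limma adjusted p = 0.0478). At day 15 it averaged 6938 ± 138 TPM, and the log2 fold change of day 15 against day 0 was -0.22 (95% interval -0.60 to 0.16, limma adjusted p = 0.379). That direction depended on the scaling, since median-of-ratios scaling gave 0.051.

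TNNI1, the slow skeletal and fetal cardiac inhibitory subunit, had 952, 1001 and 1057 TPM at day 0, 838, 855 and 1029.8 at day 7, and 507.5, 951 and 666 at day 15. The day 15 libraries spread most, and the highest of them lay just under the lowest day 0 library (950.6 against 952.1 TPM). TNNI1 averaged 708 ± 224 TPM at day 15, against 1003 ± 52.5 TPM at day 0 (SD, n = 3 each). The log2 fold change was -0.55 ± 0.21 (SE; 95% interval -1.01 to -0.08), with an unadjusted p of 0.0242 and a limma adjusted p of 0.0789, so it did not pass. Without day 15 replicate 2, the library closest to day 0, the log2 fold change was -0.78 (limma adjusted p = 0.0131), and without day 15 replicate 1 it was -0.33 (limma adjusted p = 0.254). Median-of-ratios scaling gave -0.28 (limma adjusted p = 0.222), and library weights gave -0.57 (limma adjusted p = 0.0117). Day 15 replicate 1, the lowest, was also the library in which the most abundant row took 46.0% of all TPM. The TNNI1 share of troponin I, which does not depend on that row, was lowest there too (6.74%). The effect of that row on the TNNI1 level was not tested. For day 7 against day 0 the log2 fold change was -0.15 (limma adjusted p = 0.647).

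Within troponin I, the share of the slow form was set beside that of the cardiac form, since the replacement of TNNI1 by TNNI3 is the known postnatal step in other mammals. TNNI1 made up 9.996%, 12.1% and 11.1% of troponin I TPM at day 0, 10.3%, 12.7% and 17.3% at day 7, and 6.74%, 11.9% and 8.95% at day 15. The 3 ages overlapped, with the highest share in day 7 replicate 6 and the lowest in day 15 replicate 1. TNNI3 exceeded TNNI1 by 7.24 to 9.003-fold at day 0, 4.78 to 8.72-fold at day 7 and 7.38 to 13.8-fold at day 15. The log2 ratio of TNNI1 to TNNI3 averaged -3.01 ± 0.16, -2.72 ± 0.44 and -3.34 ± 0.45 at day 0, day 7 and day 15 (SD, n = 3 each). An exact permutation test over all assignments of the 9 libraries to the ages gave p = 0.204 (0.305 adjusted over 3 isoform ratios, the smallest possible p being 0.00357). TNNI2, the fast skeletal inhibitory subunit, stayed between 0.0916 and 0.508 TPM in all 9 libraries.

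TNNT2, the cardiac tropomyosin-binding subunit, was the most abundant troponin transcript at each age. It had 8883, 9600.4 and 10435 TPM at day 0, 9591, 8991 and 6914 at day 7, and 9538, 10582 and 7967 at day 15. The 3 ages overlapped, and the lowest value came from day 7 replicate 6. The log2 fold change of day 15 against day 0 was -0.049 (95% interval -0.44 to 0.35, limma adjusted p = 0.865), and its sign turned under 4 other scalings, to between 0.096 and 0.22, and was 0.010 without day 0 replicate 6 and 0.063 without day 15 replicate 6. For day 7 against day 0 it was -0.19 (95% interval -0.59 to 0.20, limma adjusted p = 0.475).

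TNNT1, the slow skeletal tropomyosin-binding subunit, changed most. It had 45.8, 46.6 and 55.3 TPM at day 0, 136, 284 and 27.7 at day 7, and 296, 407 and 198 at day 15. All day 15 libraries lay above all day 0 libraries. For TNNT1 the highest value over the lowest was 14.7-fold, against 1.36-fold to 2.08-fold for TNNC1, TNNT2, TNNI3 and TNNI1. It was 7.84-fold for TNNC2 and 5.54-fold for TNNI2, which are low genes. These ranges include the spread within an age. The day 7 libraries lay on both sides, with replicates 2 and 5 above every day 0 library and replicate 6 below them.

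TNNT1 averaged 300.5 ± 105 TPM at day 15, against 49.2 ± 5.23 TPM at day 0 (SD, n = 3 each). It rose by a log2 fold change of 2.53 ± 0.60 (SE), which is 5.77-fold with a 95% interval of 2.32 to 14.3, and the limma adjusted p was 0.0124. Without day 0 replicate 6 the log2 fold change was 2.61 and the limma adjusted p 0.0519, and a robust fit on all libraries gave 0.0648. At day 7 TNNT1 averaged 149 ± 129 TPM, with a log2 fold change against day 0 of 1.05 (95% interval -0.26 to 2.37, limma adjusted p = 0.235). The day 7 value turned on its libraries, at 1.98 without replicate 6 (limma adjusted p = 0.0165) and 0.33 without replicate 5 (limma adjusted p = 0.687). Day 15 against day 7 gave 1.47 (95% interval 0.16 to 2.79) with an unadjusted p of 0.0306 and a limma adjusted p of 0.340, and was 0.55 without day 7 replicate 6 (limma adjusted p = 0.510) and 2.20 without day 7 replicate 5 (limma adjusted p = 0.0701). The first step minus the second was -0.42 (limma adjusted p = 0.873), so the data did not separate the steps. In the F test over the ages TNNT1 had a limma adjusted p of 0.0283, which was 0.0789 without day 0 replicate 4, 0.0959 without day 0 replicate 6, 0.0607 without day 15 replicate 1 and 0.0660 without day 15 replicate 2.

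Within troponin T, TNNT1 remained a small part. Its share was 0.513%, 0.483% and 0.527% at day 0, 1.40%, 3.06% and 0.399% at day 7, and 3.01%, 3.71% and 2.42% at day 15, with no overlap between day 15 and day 0. TNNT2 exceeded TNNT1 by 189 to 206-fold at day 0, 31.7 to 249.6-fold at day 7 and 26.0 to 40.3-fold at day 15. The log2 ratio of TNNT1 to TNNT2 averaged -7.59 ± 0.06, -6.34 ± 1.48 and -5.01 ± 0.31 at day 0, day 7 and day 15 (SD, n = 3 each). The exact permutation test over the ages gave p = 0.0536 (0.161 adjusted over the 3 ratios). TNNT3, the fast skeletal form, was listed at 0 in 8 libraries and at 0.1003 TPM in day 0 replicate 6.

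**Figure D3:**
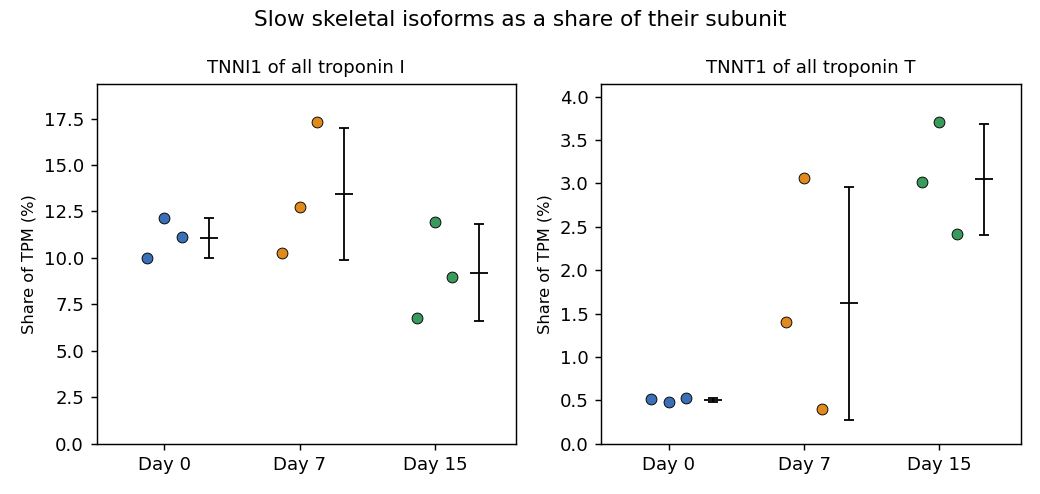
Share of TNNI1 in all troponin I TPM and of TNNT1 in all troponin T TPM (y axis, percent, from 0), by age (x axis). Points are libraries and the bar is the mean ± SD (n = 3). TNNI1 overlaps between the ages at 6.74% to 17.3%, while TNNT1 is at 2.42% to 3.71% at day 15 and 0.483% to 0.527% at day 0.

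Skeletal muscle also makes TNNT1, so its markers are given beside it. Of 15 skeletal fibre markers, 12 had a row, 8 of these stayed below 1 TPM in every library, and 0 of the 3 tested rose or fell in limma in any comparison of ages. Their summed level was 9.87 to 14.7 TPM at day 0, 10.7 to 13.6 TPM at day 7 and 6.34 to 11.5 TPM at day 15, and CASQ1, the calsequestrin of skeletal muscle, held 1.85 to 10.7 TPM of it. MYBPC2, the fast myosin-binding protein C, which was too low to be tested, had another pattern. It had 0.191, 0.420 and 0.190 TPM at day 0, 0.367, 1.13 and 0.498 at day 7, and 0.871, 1.32 and 0.649 at day 15. As for TNNT1, every day 15 library lay above every day 0 library, and replicate 5 was highest at day 7. Unlike TNNT1, day 7 replicate 6 lay above every day 0 library. Of the 12 markers, MYBPC2 alone had all day 15 libraries above all day 0 libraries. CASQ1 was lowest at day 7 in replicate 5 (4.60 TPM, against 10.3 and 10.7 TPM). The progenitor markers PAX7 and MYF5 were listed at 0 in every library. Summed atrial markers were 567 to 2957 TPM at day 0, 147 to 2327 TPM at day 7 and 174 to 651 TPM at day 15, and smooth muscle and pericyte markers 337 to 523, 251 to 336 and 208 to 224 TPM. Of 6 smooth muscle and pericyte markers tested, 4 fell at day 15 and 1 fell at day 7, each against day 0. Their sums at day 7 and day 15 lay below all day 0 sums. Of 2 atrial markers tested, 1 fell at day 15 against day 0. At day 7 the atrial sums were 425, 2327 and 147 TPM, highest in replicate 5 and lowest in replicate 6, as for TNNT1. Unlike TNNT1, the atrial sums at day 15 did not lie above those of day 0. Of all tested genes, 7.67% rose and 8.88% fell at day 7, and 5.53% rose and 18.4% fell at day 15, each against day 0. Endothelial markers summed to 194 to 226, 287 to 309 and 183 to 214 TPM (of 6 tested, 2 rose and 1 fell at day 7, and 1 fell at day 15, each against day 0). Fibroblast markers summed to 912 to 1400.2, 1581 to 2162 and 1128 to 1437 TPM (of 6 tested, 1 rose at day 7 against day 0). The day 7 sums of endothelial and fibroblast markers lay above those of day 0. Macrophage markers summed to 42.1 to 48.4, 38.8 to 69.3 and 34.3 to 146 TPM. Of 4 tested, 1 rose at day 7 and 1 at day 15, each against day 0. Erythroid markers summed to 391 to 1259, 552 to 1212 and 432 to 653 TPM. Of 3 tested, 1 rose at day 7 and 1 at day 15, each against day 0. The part of any of these cells in the troponin values was not tested.

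TNNC1, the calcium-binding subunit of heart and slow muscle, varied least. It had 4364, 4221 and 4171 TPM at day 0, 5535, 4820.1 and 4113 at day 7, and 4082, 4783 and 4273 at day 15. The ages overlapped, and day 7 held both the highest library and one below all day 0 libraries. The log2 fold change was 0.17 for day 7 against day 0 (95% interval -0.18 to 0.52, limma adjusted p = 0.479) and 0.040 for day 15 against day 0 (95% interval -0.31 to 0.39, limma adjusted p = 0.880). Without day 15 replicate 2 the second of these was -0.026.

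TNNC2, the fast skeletal calcium-binding subunit, was close to the filter. It had 0.617, 1.10 and 1.03 TPM at day 0, 1.70, 2.36 and 1.37 at day 7, and 2.999, 1.75 and 0.383 at day 15. All day 7 libraries lay above all day 0 libraries, and day 15 held both the highest and the lowest value. The log2 fold change of day 7 against day 0 was 0.55 (95% interval -0.14 to 1.24, limma adjusted p = 0.241). TNNC1 made up at least 99.9% of troponin C TPM in every library, and the exact permutation test of the log2 ratio of TNNC2 to TNNC1 gave p = 0.600 (0.600 adjusted over the 3 ratios). RefSeq (assembly Sscrofa11.1) places a long noncoding gene, LOC110257453, over TNNC2, and how reads were divided between them is not known.

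The complex holds 1 of each subunit, so their summed transcripts were also set against each other. The ratios were chosen after values were seen and are a description with no test. Troponin C over troponin I was 0.458, 0.512 and 0.438 at day 0, 0.680, 0.719 and 0.691 at day 7, and 0.542, 0.601 and 0.574 at day 15. These values did not overlap between any of the ages, with day 7 highest and day 0 lowest. TNNC1 over TNNI3 alone ran from 0.493 to 0.583 at day 0, 0.757 to 0.836 at day 7 and 0.581 to 0.682 at day 15, and there day 15 and day 0 overlapped. Troponin T over troponin I was 0.937 to 1.17, 1.17 to 1.38 and 1.10 to 1.38 at day 0, day 7 and day 15. Troponin T over troponin C was 2.05 to 2.51, 1.69 to 1.92 and 1.91 to 2.41, so it was lowest at day 7 with overlap between day 15 and both other ages.

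**Figure D4:**
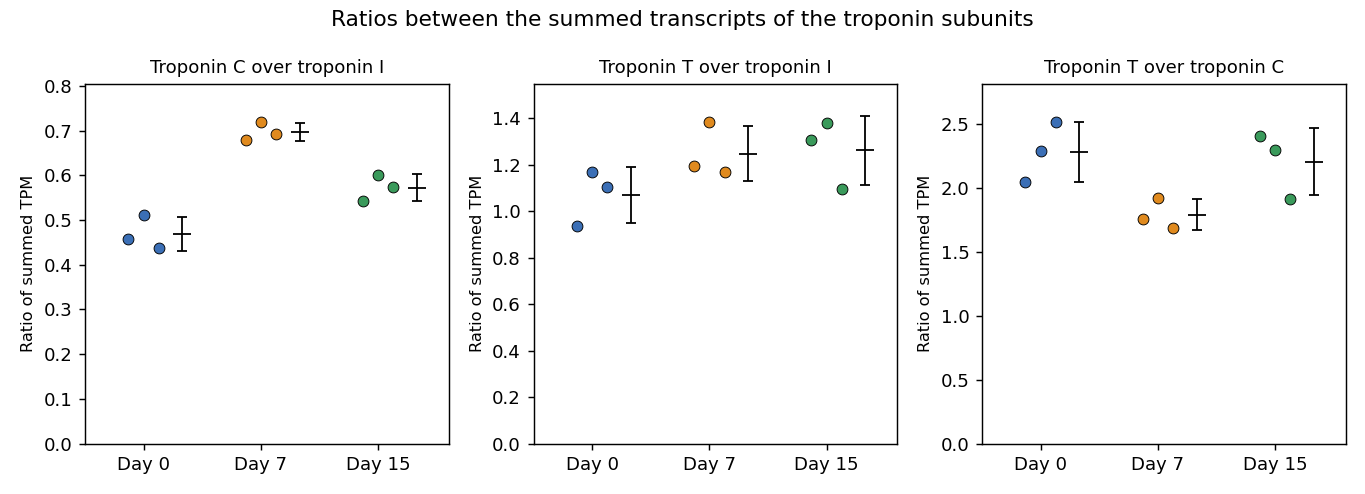
Ratio of the summed TPM of troponin C to troponin I, troponin T to troponin I and troponin T to troponin C (y axis, no unit, from 0), by age (x axis). Points are libraries and the bar is the mean ± SD (n = 3). Troponin C over troponin I is 0.438 to 0.512 at day 0, 0.680 to 0.719 at day 7 and 0.542 to 0.601 at day 15.

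Across the 9 libraries the troponin genes did not vary as one group. Pearson correlations of log2(TPM + 1), which share library and age and are a description, were 0.70 for TNNI3 with TNNT2, -0.61 for TNNI1 with TNNT1, 0.029 for TNNI1 with TNNT2 and -0.019 for TNNI3 with TNNT1. The low pairs include neighbours on the chromosome. By the RefSeq gene order (assembly Sscrofa11.1), TNNT1 and TNNI3 are adjacent, and LAD1 alone lies between TNNT2 and TNNI1. LAD1, which encodes ladinin, ranged from 42.4 to 60.7 TPM, and PPP1R12C, a regulatory subunit of myosin phosphatase on the other side of TNNT1, had 32.2, 43.4 and 38.0 TPM at day 0, 25.8, 27.2 and 17.8 at day 7, and 26.7, 30.9 and 28.4 at day 15. SYT5, on the other side of TNNI3, stayed below 1 TPM at 0.0315 to 0.872 TPM. Of the neighbours of TNNC1, SEMA3G had 6.01 to 10.4 TPM and NISCH 12.4 to 26.7 TPM.

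The genes whose log2(TPM + 1) followed a troponin gene most closely over the 9 libraries are given by Pearson r, without a test. They are the highest of 7146 candidate genes. How high r would run in such a search among unrelated genes was not tested. For TNNT1 they were HDHD5 (r = 0.96), ACSS1 (r = 0.96), a mitochondrial acetyl-CoA synthetase, and ECHDC3 (r = 0.94). ACSS1 had 10.2, 7.95 and 11.1 TPM at day 0, 21.9, 45.6 and 10.9 at day 7, and 52.0, 71.4 and 51.3 at day 15, and like TNNT1 it was lowest among the day 7 libraries in replicate 6. For TNNI1 they were CPSF3 (r = 0.99), TNK2 (r = 0.96) and IST1 (r = 0.96). For TNNI3 they were MTLN, COX4I1, a subunit of cytochrome c oxidase, and ATP5MD (r = 0.95 each), for TNNT2 SLCO3A1 (r = 0.97), MARCH2 (r = 0.96) and GPD1 (r = 0.92), and for TNNC1 HEPACAM (r = 0.95), ABHD11 (r = 0.90) and SPAG8 (r = 0.89).

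A minority of the listed thin filament genes passed the test. Of 13 actin, tropomyosin, tropomodulin, leiomodin and nebulin genes, 12 were tested, and 0 rose and 4 fell at day 15 against day 0 (median log2 fold change -0.042), where over all tested genes 5.53% rose and 18.4% fell (median -0.19). For the first week the limma counts were 0 that rose and 3 that fell (3 were higher at an unadjusted p under 0.05, median 0.19), where 7.67% of all rose and 8.88% fell (median -0.043). At day 15 against day 7, 0 rose and 0 fell (1 had an unadjusted p under 0.05, median -0.18), where 0.171% of all passed (median -0.15). With median-of-ratios scaling 1 rose and 2 fell at day 15 against day 0, and 3 rose and 2 fell at day 7 against day 0. ACTC1, the cardiac actin on which troponin acts, had 11841, 14745 and 15356 TPM at day 0, 6255, 8088 and 4494 at day 7, and 2952, 4609 and 5540.5 at day 15, with the day 0 libraries above all others. Its log2 fold change was -1.72 for day 15 against day 0 (limma adjusted p = 0.00210) and -1.19 for day 7 against day 0 (limma adjusted p = 0.0129, 0.0712 without day 0 replicate 6). TPM2, the beta tropomyosin, averaged 1356 ± 462 TPM at day 7, against 2224 ± 249 TPM at day 0 (-0.76, limma adjusted p = 0.0394). It was also lower at day 15 than at day 0, at 1341 ± 126 TPM (-0.73, limma adjusted p = 0.0362). TMOD1, which caps the pointed ends of thin filaments, averaged 112 ± 14.9 TPM at day 15, against 176 ± 20.3 TPM at day 0 (-0.65, limma adjusted p = 0.0190), and LMOD1, the smooth muscle leiomodin, 1.58 ± 0.158 TPM at day 15, against 2.88 ± 0.510 TPM at day 0 (-0.58, limma adjusted p = 0.0310). TMOD1 was also lower at day 7 than at day 0 (-0.54, limma adjusted p = 0.0498). The count at day 15 against day 0 was 1 without replicate 6 of day 0 or replicate 1 or 6 of day 15, where TMOD1 and LMOD1 had limma adjusted p values of 0.0565 to 0.104. For day 7 against day 0 it was 0 when day 0 replicate 6 was left out, and 1 when day 0 replicate 4, day 7 replicate 5 or 6 or day 15 replicate 6 was. Without day 0 replicate 5, 3 rose and 1 fell at day 7, and 1 rose and 2 fell at day 15, each against day 0. None of the differences given here for ACTC1, TMOD1 and LMOD1, or for TPM2 at day 7, changed sign in any setting. LMOD1 also lost its call without day 0 replicate 5 (limma adjusted p = 0.0766), and so did TPM2 at day 7 (0.0815). TMOD1 at day 7 lost its call without day 0 replicate 5 or day 7 replicate 2 (limma adjusted p 0.107 and 0.134). Over 22 other settings, TPM2 kept its day 7 call in 11, and TMOD1 kept its call in 18 at day 15 and 9 at day 7. ACTC1 kept its call in 22 at day 15 and 20 at day 7, and LMOD1 in 13 of 21.

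**Figure D5:**
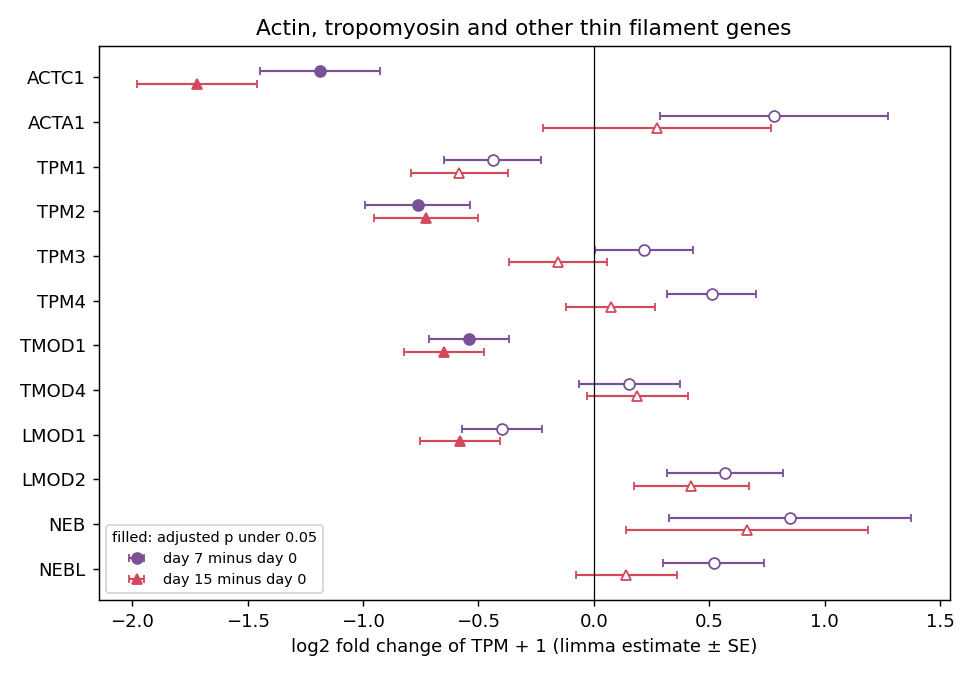
Log2 fold change of TPM + 1 (x axis, limma estimate ± SE) of 12 actin, tropomyosin, tropomodulin, leiomodin and nebulin genes (y axis) at day 7 and at day 15, each against day 0; filled symbols passed the threshold of 0.05 on the adjusted p. ACTC1 has the lowest values, -1.19 and -1.72.

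Of 9 thick filament genes, 7 were tested, and 0 rose and 0 fell in limma at day 7 against day 0, at day 15 against day 7 and at day 15 against day 0 (1, 0 and 1 had an unadjusted p under 0.05). In that order, 16.6%, 0.171% and 23.9% of all tested genes passed. The median log2 fold changes were -0.065, -0.094 and -0.12, against -0.043, -0.15 and -0.19 over all tested genes. With median-of-ratios scaling 2 rose at day 7 and 2 at day 15, each against day 0, and without day 7 replicate 6 the count of called genes was 1 in both. The most abundant of them, the ventricular light chain MYL3, averaged 13738 ± 661 TPM at day 15, against 13920 ± 372 TPM at day 0 (limma adjusted p = 0.939).

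Kinases, phosphatases and ubiquitin ligases that act on troponin were mixed in direction. Of 18 tested, 3 rose and 1 fell at day 7 against day 0, and 1 rose and 1 fell at day 15 against day 0, or 4 and 0 with median-of-ratios scaling. Of all tested genes, 16.6% passed in the first of these comparisons and 23.9% in the second. At day 15 against day 7, 0 rose and 0 fell in limma (2 had an unadjusted p under 0.05), where 0.171% of all tested genes passed. The medians were -0.039, -0.18 and -0.082 for day 7 against day 0, day 15 against day 0 and day 15 against day 7. TNNI3K, a heart kinase named for its binding to cardiac troponin I, had 34.0, 59.8 and 32.6 TPM at day 0, 73.5, 89.2 and 99.1 at day 7, and 56.8, 81.5 and 79.2 at day 15. All day 7 libraries lay above all day 0 libraries, with a log2 fold change of 1.08 (limma adjusted p = 0.0147), while day 15 overlapped day 0 (0.81, limma adjusted p = 0.0320). PAK1, a kinase activated by Rac and Cdc42, averaged 11.4 ± 2.55 TPM at day 7, against 5.51 ± 0.859 TPM at day 0 (0.91, limma adjusted p = 0.0155). PRKCA, a protein kinase C that phosphorylates troponin I, averaged 6.45 ± 1.81 TPM at day 7, against 3.09 ± 0.720 TPM at day 0 (0.85, limma adjusted p = 0.0248). PPP1CA, a catalytic subunit of protein phosphatase 1, averaged 12.4 ± 1.28 TPM at day 15, against 18.0 ± 0.664 TPM at day 0 (-0.51, limma adjusted p = 0.0474). PPP1CB, the most abundant of the list, did not pass (85.3 ± 38.8 TPM at day 15, against 106 ± 26.4 TPM at day 0, limma adjusted p = 0.381). The calls changed when a single library was left out, and so did those over all tested genes. At day 7 against day 0 the latter numbered 2031 with all libraries, and 372 to 2685 when leaving out a library. For this list the count at day 7 against day 0 was 0 without day 0 replicate 4 or 6, 2 without day 7 replicate 2 or 5, and 1 without day 7 replicate 6, with limma adjusted p values of 0.0504 to 0.0992 for the lost calls of TNNI3K, PAK1 and PRKCA. At day 15 against day 0 it was 0 without replicate 4 or 6 of day 0 or replicate 6 of day 15, and 1 without day 7 replicate 2 or 5, with limma adjusted p values up to 0.149. Without day 15 replicate 1 it was 2 that rose and 0 that fell, and without day 15 replicate 2 it was 0 that rose and 2 that fell. There TNNI3K also lost its call without day 15 replicate 2 (0.0713), and PPP1CA without day 0 replicate 5 (0.0887) or day 15 replicate 1 (0.108). Over 22 other settings TNNI3K kept its call in 19 at day 7 and 16 at day 15, PAK1 in 17 and PPP1CA in 9, and PRKCA in 15 of 21.

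Splicing factors known to act on troponin T exons were included because TNNT2 is spliced differently in fetal and adult hearts, which gene-level TPM does not show. Of 8 tested, 0 rose and 4 fell at day 15 against day 0 (median log2 fold change -0.57), or 2 and 4 with median-of-ratios scaling, where 5.53% of all tested genes rose and 18.4% fell (median -0.19). For day 7 the counts against day 0 were 1 that rose and 1 that fell, or 2 and 3 with that scaling (median -0.22), where 7.67% of all rose and 8.88% fell (median -0.043). At day 15 against day 7, 0 rose and 0 fell in limma (1 had an unadjusted p under 0.05), where 0.171% of all passed. PTBP1, a splicing repressor, had 50.2, 54.2 and 68.1 TPM at day 0, 50.5, 51.7 and 44.9 at day 7, and 28.3, 37.8 and 33.4 at day 15. The day 15 libraries lay below all others, with a log2 fold change against day 0 of -0.77 (limma adjusted p = 0.0110). RBFOX2 averaged 23.6 ± 4.00 TPM at day 15, against 37.2 ± 4.69 TPM at day 0 (-0.64, limma adjusted p = 0.0253). RBM24, a muscle splicing factor and the most abundant of the list, averaged 42.6 ± 8.93 TPM at day 15, against 79.7 ± 23.1 TPM at day 0 (-0.87, limma adjusted p = 0.0278), and fell at day 7 by 0.89 (limma adjusted p = 0.0341). RBFOX1 averaged 10.3 ± 1.73 TPM at day 7, against 6.01 ± 0.976 TPM at day 0 (0.69, limma adjusted p = 0.0361). At day 15 against day 0 the count was 0 without day 0 replicate 6, and 1 without replicate 4 of day 0 or replicate 1 or 6 of day 15 (limma adjusted p 0.0531 to 0.140 for the lost calls named here). In the comparison of day 7 with day 0 it was 0 without replicate 4 or 6 of day 0 or replicate 2 or 6 of day 7, and 1 without day 7 replicate 5 or day 15 replicate 6 (limma adjusted p 0.0553 to 0.154). Over 22 other settings PTBP1 kept its call in 20, RBFOX2 in 17, RBM24 in 15 at day 15 and 16 at day 7, and RBFOX1 in 14.

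Of 15 genes of thyroid hormone action and muscle transcription, 13 were tested. At day 15 against day 0, 0 rose and 5 fell, or 1 and 4 with median-of-ratios scaling, with a median log2 fold change of -0.38, where 23.9% of all tested genes were called (18.4% as lower) and the median over all was -0.19. In the first week 0 rose and 2 fell (median -0.20), where 7.67% of all rose and 8.88% fell (median -0.043). At day 15 against day 7, 0 rose and 0 fell in limma (3 had an unadjusted p under 0.05), where 0.171% of all passed. GATA4, a cardiac transcription factor that binds troponin gene promoters in rodents, had 64.3, 63.4 and 80.5 TPM at day 0, 46.4, 40.2 and 38.6 at day 7, and 31.2, 42.9 and 35.4 at day 15. The day 0 libraries lay above all others, with log2 fold changes of -0.91 at day 15 (limma adjusted p = 0.00608) and -0.72 at day 7 (limma adjusted p = 0.0214), each against day 0. SRF, serum response factor, averaged 29.5 ± 7.71 TPM at day 15, against 70.8 ± 15.3 TPM at day 0 (-1.25, limma adjusted p = 0.00861). Its coactivator MYOCD averaged 7.89 ± 0.779 TPM at day 15, against 18.2 ± 6.66 TPM at day 0 (-1.05, limma adjusted p = 0.0115). SRF was also lower at day 7 than at day 0 (-1.20, limma adjusted p = 0.0146). HAND2, the most abundant of the list, averaged 111 ± 29.0 TPM at day 15, against 101 ± 15.9 TPM at day 0 (limma adjusted p = 0.705). Without day 0 replicate 6 the count at day 15 against day 0 was 1, with limma adjusted p values of 0.0527 to 0.0639 for SRF and MYOCD, and it was 3 without day 15 replicate 1 or 6. At day 7 against day 0 it was 0 without replicate 4 or 6 of day 0 or replicate 6 of day 7, and GATA4 also lost its call without day 7 replicate 5 (limma adjusted p = 0.0592). Over 22 other settings GATA4 kept its call in 22 at day 15 and 18 at day 7, SRF in 20 and 19, and MYOCD in 20.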

How the data were processed

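The authors deposited 1 table of TPM values with 22629 rows and 1 column per library. All 9 columns were used, and their sums are equal within rounding. Frozen left ventricle, NucleoSpin RNA extraction and TruSeq stranded mRNA libraries are stated per the labels' protocols. Per the submitters' processing notes, the tools were Trimmomatic 0.33, HISAT2 2.0.5 and kallisto 0.43.1, with no role or order stated. The build, the annotation and strand use were not given in the sources used here, so no coordinates are printed. Of 7534 rows named by Ensembl ID, 889 took a new symbol from a gene name table.

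Genes with at least 1 TPM in at least 3 libraries were kept (12268). Values were log2(TPM + 1), which understates the change of low genes. In limma 3.58.1 (R 4.3.3), all 9 libraries entered a linear model with a mean for each age (empirical Bayes with trend, 6 residual degrees of freedom, Benjamini-Hochberg adjustment over all tested genes, threshold 0.05). The same step was tested on simulated data. Isoform ratios used log2((A + 1)/(B + 1)) and an exact permutation test over all assignments of libraries to ages.

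The troponin genes and all lists were chosen with earlier results of these data known. Named genes were the 8 troponin genes, the 3 genes most like each troponin gene with a mean of at least 5 TPM, their chromosomal neighbours, and for each list and comparison the 3 smallest adjusted p values under 0.05 with the most abundant gene. The ratios between subunits were chosen after values were seen. The 22 alternative settings comprised a pseudocount of 0.1 or 5, a filter on the mean (5 TPM) or none, 4 other scalings, no trend, a robust fit, library weights, the replicate number as a block, a fit on the 2 ages compared, and leaving out each library in turn.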

Additional observations from a re-analysis of the deposited data

How the results depend on the processing

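TNNT1 at day 15 against day 0 was higher in all 22 other settings (log2 fold change 2.10 to 2.82, limma adjusted p 9.08e-05 to 0.0648). The count of troponin genes that passed at day 15 against day 0 was 0 in a robust fit and 2 with library weights, and 0 to 2 when leaving out a library. At day 7 against day 0 it was 1 with quantile normalization, and 0 to 1 when leaving out a library. The step difference gave 1 with quantile normalization. The F test gave 0 without the filter, 2 with quantile normalization, 0 in the robust fit, 3 with library weights and 0 with the replicate block, and 0 to 1 when leaving out a library. The cause was not tested.

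Signs of uncalled differences turned as follows. TNNI1 at day 7 against day 0 was 0.025 with TPM rescaled without mitochondrial and the 20 most abundant genes. At day 15 against day 0, TNNI3 was 0.051, 0.076 and 0.037, and TNNT2 0.22, 0.096 and 0.21, with median-of-ratios, quantile and that rescaling, and TNNT2 was 0.11 with TPM rescaled without the most abundant gene. At day 15 against day 7, TNNT2 was -0.072 with library weights, TNNC1 0.044 with median-of-ratios scaling and TNNC2 0.0029 with quantile normalization. TNNC2 at day 15 against day 0 was -0.27 with library weights and -0.13 with the block. Leaving out a library gave -0.14 to 0.063 for TNNT2 and -0.026 to 0.089 for TNNC1 at day 15 against day 0, and -0.51 to 0.26 for TNNC2 at day 15 against day 7. Scalings raised the median of all genes at day 15 against day 0 by 0.22 (median-of-ratios), 0.15 (quantile), 0.21 (rescaled without mitochondrial and the 20 most abundant genes) and 0.12 (without the most abundant gene).

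Over all tested genes, 2031 passed at day 7 against day 0 (941 higher, 1090 lower), 21 at day 15 against day 7 and 2933 at day 15 against day 0 (678 higher, 2255 lower). These counts ran from 372 to 3827, from 0 to 1324 and from 786 to 5272 over the settings, and median-of-ratios scaling gave 2061 higher and 1766 lower, and 2029 higher and 1800 lower, for the comparisons with day 0. With the replicate number as a block the counts were 857, 126 and 919, and TNNT1 at day 15 against day 0 was 2.598 (limma adjusted p = 0.0481). No label says that the replicate numbers pair samples, so they were not taken to do so. Deviations from the age means correlated at r -0.21 to 0.17 between same-numbered libraries. Differently numbered libraries gave -0.33 to 0.37, a wider range, so these values cannot decide whether samples are paired. The 3 isoform ratios kept their side of the threshold with both pseudocounts and without each library. The library weights gave day 15 replicate 6 a weight of 6.42, against 0.394 to 1.39 for the others. What depth limits cannot be given, since TPM does not hold it.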

Other observations

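The ratio of the transcripts of TNNT2 and ACTC1, the cardiac actin gene, was computed after the values were seen, as a description with no test. TNNT2 over ACTC1 was 0.750, 0.651 and 0.680 at day 0, 1.53, 1.11 and 1.54 at day 7, and 3.23, 2.30 and 1.44 at day 15. Every library of day 7 and day 15 lay above every library of day 0. With the skeletal actin ACTA1 added to the denominator the ratio was 0.462 to 0.660 at day 0, 0.655 to 0.977 at day 7 and 0.997 to 1.42 at day 15, and day 7 overlapped day 0. TNNT2 over TPM1, the main tropomyosin, was 1.32 to 1.83 at day 0, 1.67 to 2.13 at day 7 and 1.86 to 2.55 at day 15.

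TNNT1 over TNNI1, the ratio of the slow skeletal forms of troponin T and troponin I, was 0.0482, 0.0466 and 0.0523 at day 0, 0.163, 0.332 and 0.0269 at day 7, and 0.584, 0.429 and 0.297 at day 15. The day 15 libraries lay above all day 0 libraries, and day 7 replicate 6 lay below them.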
